A study of Gallus gallus with 3 samples.

Results

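The comparison set the RNA of foregut endoderm against that of early endoderm in the chick, over every annotated gene of the array and by cell function rather than by patterning factor. It used 2 of the 3 arrays in the series, chosen by their tissue labels, with 1 array for each tissue. Early endoderm was definitive endoderm in its full extent, pooled from 500 embryos of Hamburger-Hamilton (HH) stages 4 to 5, lifted off the mesenchyme with a needle. Foregut endoderm came from stages 10 to 11 and was the part anterior to the intestinal portal, the mouth of the closing gut tube. It was cut out together with mesenchyme, which was taken off after 30 min in 0.03% collagenase. The remaining array, mid/hindgut endoderm of stages 8 to 10, was treated with collagenase in the same way, and its levels are set beside the others for reference. Tissue was pooled from collections every 4 h over 1 day, each array received label made from 5 µg of total RNA, and the birds' strain, genotype and number of foregut pieces were not given in the sources used here. The labels name no treatment other than the dissection, so stage, position and method of isolation cannot be told apart.

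Definitive endoderm is the germ layer that leaves the primitive streak and spreads as a flat epithelium under the embryo. Its anterior part then folds into a tube, the foregut, whose cells lie on a basement membrane next to mesenchyme, vessels and the forming heart, and which later gives rise to pharynx, lung, liver and other organs. Epithelia of this kind take up nutrients through membrane transporters, hold together through cadherins and tight junctions, and grip the matrix through integrins.

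With 1 array per tissue no difference had a replicate check, so no p-value is given and every fold change is a comparison of these pools. Signals are MAS5 intensities in arbitrary units, scaled to a common 2% trimmed mean. Signals under a floor of 22.1 units, the 40th percentile of chicken probe sets, were set to that floor. A fold against a gene under the floor is therefore a lower limit, written "at least", and a fold whose dimmer signal lay under 44.3 units, 2 times the floor, is inexact and written "about". Where a gene had several probe sets, the log2 difference varied between them with a technical standard deviation (SD) of 0.43 over 4279 genes, from 0.50 for the dimmest to 0.35 for the brightest. Among 563 genes whose brighter probe set was at least 2-fold apart, the second pointed the same way in 91.3% and was itself at least 2-fold apart in 51.2%. The share of chicken probe sets above the floor was 58.9% in early endoderm against 60.2% in foregut and 60.8% in mid/hindgut.

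Most genes had similar levels in both tissues, and more stood higher than lower in foregut. Of 13008 named genes, 10800 were above the floor on either array and are called measured. Of these, 1145 genes (10.6%) exceeded early endoderm at least 2-fold in foregut and 701 (6.49%) fell short of it at least 2-fold, while 8954 lay within 2-fold. At 4-fold the counts were 275 higher (2.55%) and 171 lower (1.58%). The median log2 difference over measured genes was 0.08. The balance of the calls depended on the choice of probe sets, as given below, and on the scaling. The spiked controls gave 0.587 times their early signal in foregut before scaling. Higher genes made up 62.0% of the calls as reported, 58.5% when the median of the ribosomal protein genes was set level (1075 higher and 764 lower), 38.0% without scaling (742 and 1210) and 86.6% when these hybridisation controls set it (2465 and 380). List medians below are therefore given relative to the median of all measured genes. Signals of single genes follow in the order early endoderm, foregut and mid/hindgut where no tissue is named.

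**Figure D1:**
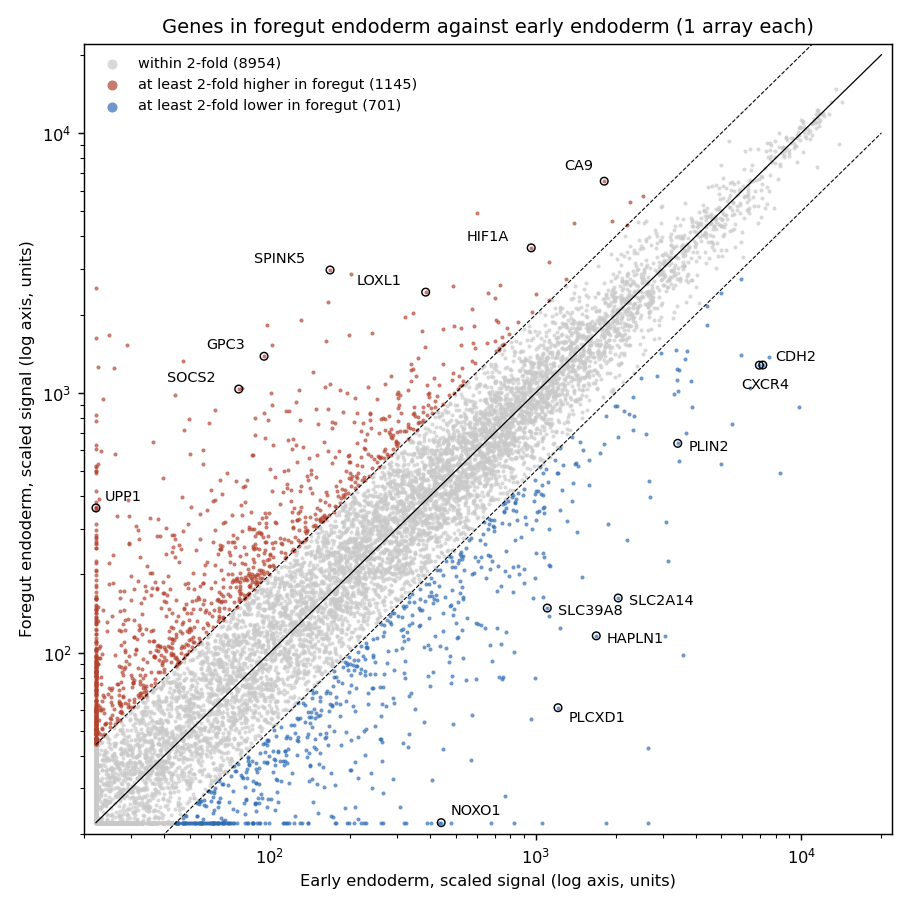
Scaled signal of each measured gene in early endoderm (horizontal, log axis) against foregut endoderm (vertical, log axis), with signals under the floor of 22.1 units drawn at it. The solid line marks equal signal and the dashed lines 2-fold; 1145 genes lie at or above the upper line and 701 at or below the lower one.

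Markers of other cell types were measured in both tissues and differed between them. The epithelial marker EPCAM, an adhesion molecule of epithelia, gave 5357, 9297 and 8896 units, and HHEX, a transcription factor of anterior endoderm, gave 1600.3, 1603 and 1308. EPCAM and HHEX lay within 2-fold and do not stand for the endoderm list. Over 12 endoderm markers 3 were higher and 4 lower in foregut. The summed signal of that list was lower in foregut, at 23697, 16300 and 26185 units. On the 3 arrays 10, 11 and 11 of the list lay above the floor. Of 18 measured endothelial markers, 16 stood at least 2-fold higher in foregut, none stood lower, and their summed signal was 659, 10965 and 11534 units. CDH5, the cadherin that defines endothelium, was below the floor in early endoderm, where 9 of these markers lay above it. Of 8 blood markers 5 were higher and none lower, with sums of 533, 3307 and 6621. Of 17 mesenchyme markers 9 were higher and 2 lower, with sums of 3943, 4804 and 2075. On the 3 arrays 11, 16 and 15 of this list lay above the floor, and POSTN, LUM and DCN were below it in early endoderm. Of 15 heart muscle markers 4 were higher and 1 lower, with sums of 1363, 3142 and 1537. Primitive streak markers went the other way, with none of 16 higher, 10 lower, and sums of 15103, 4749.9 and 6259.5. Of 14 neural and neural crest markers 4 were higher and 5 lower, with sums of 2961, 2497 and 2285. Of 8 epiblast markers 2 were higher and 5 lower, with sums of 5625, 2773 and 3939. In pooled tissue, more cells of a type and more RNA per cell cannot be told apart. The part of these cells in the results that follow was not tested.

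Genes whose probe sets shared a large difference came from several functions. Of 5202 genes with 2 or more probe sets above the floor, 140 had all of them at least 2-fold higher in foregut. A similar number, 146, had all of them at least 2-fold lower. This near-even split differs from the 1145 higher and 701 lower of all measured genes, and the reason was not tested. Reading each gene by its probe set median lowered the higher share of calls from 62.0%. It was 57.1% over probe sets above the floor and 56.0% over all probe sets. The largest difference among the concordant genes was that of EMP1, an epithelial membrane protein, about 67.2-fold higher by its brightest probe set. EMP1 gave 24.9, 1670.1 and 296 units, and 3.99 on the log2 scale as a median over its probe sets. A gene that the table lists only as CXorf36 was at least 28.5-fold higher (630.4 units in foregut and 455 in mid/hindgut, below the floor in early endoderm). FILIP1, which encodes a partner of the actin linker filamin A, was about 25.9-fold higher in foregut, with 23.1, 596 and 368 units. GREB1, first known as an oestrogen-regulated gene, was at least 23.6-fold higher in foregut and higher still in mid/hindgut (523 units in foregut and 2756 in mid/hindgut, below the floor in early endoderm). UPK1B, a uroplakin of the tetraspanin family, was at least 18.8-fold higher (417 units in foregut and 126 in mid/hindgut, below the floor in early endoderm). On the other side, PLCXD1, named for its phospholipase C-like domain, was 19.8-fold lower in foregut, from 1213 to 61.3 units. DENND5B, whose protein activates Rab GTPases of membrane traffic, was about 10.5-fold lower (447, 42.4 and 147 units). ALPPL, an alkaline phosphatase of the placental type by name, was 7.32-fold lower (682, 93.1 and 134 units), and TMEM37, a membrane protein, was 8.23-fold lower (826, 100.4 and 312 units). For each of these lower genes mid/hindgut lay between the other tissues.

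Functions differed widely in how many of their genes stood apart. The 58 functional lists held 3577 measured genes, and a gene could stand in several lists. Adhesion and matrix genes stood 2-fold or more higher in foregut in 22.9% and lower in 9.89% of 475 measured genes, against 10.6% and 6.49% of all. The same shares were 18.7% and 8.03% for signalling, 19.0% and 3.27% for stress, 15.5% and 5.76% for the cytoskeleton, 10.9% and 10.2% for transport, and 9.65% and 5.81% for metabolism. Genes of growth (ribosomes, cell cycle, chromatin, RNA binding) had the lowest share of higher genes, 3.55%, with 5.26% lower. Transport was the category closest to an even balance, with 49 genes higher and 46 lower.

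**Figure D2:**
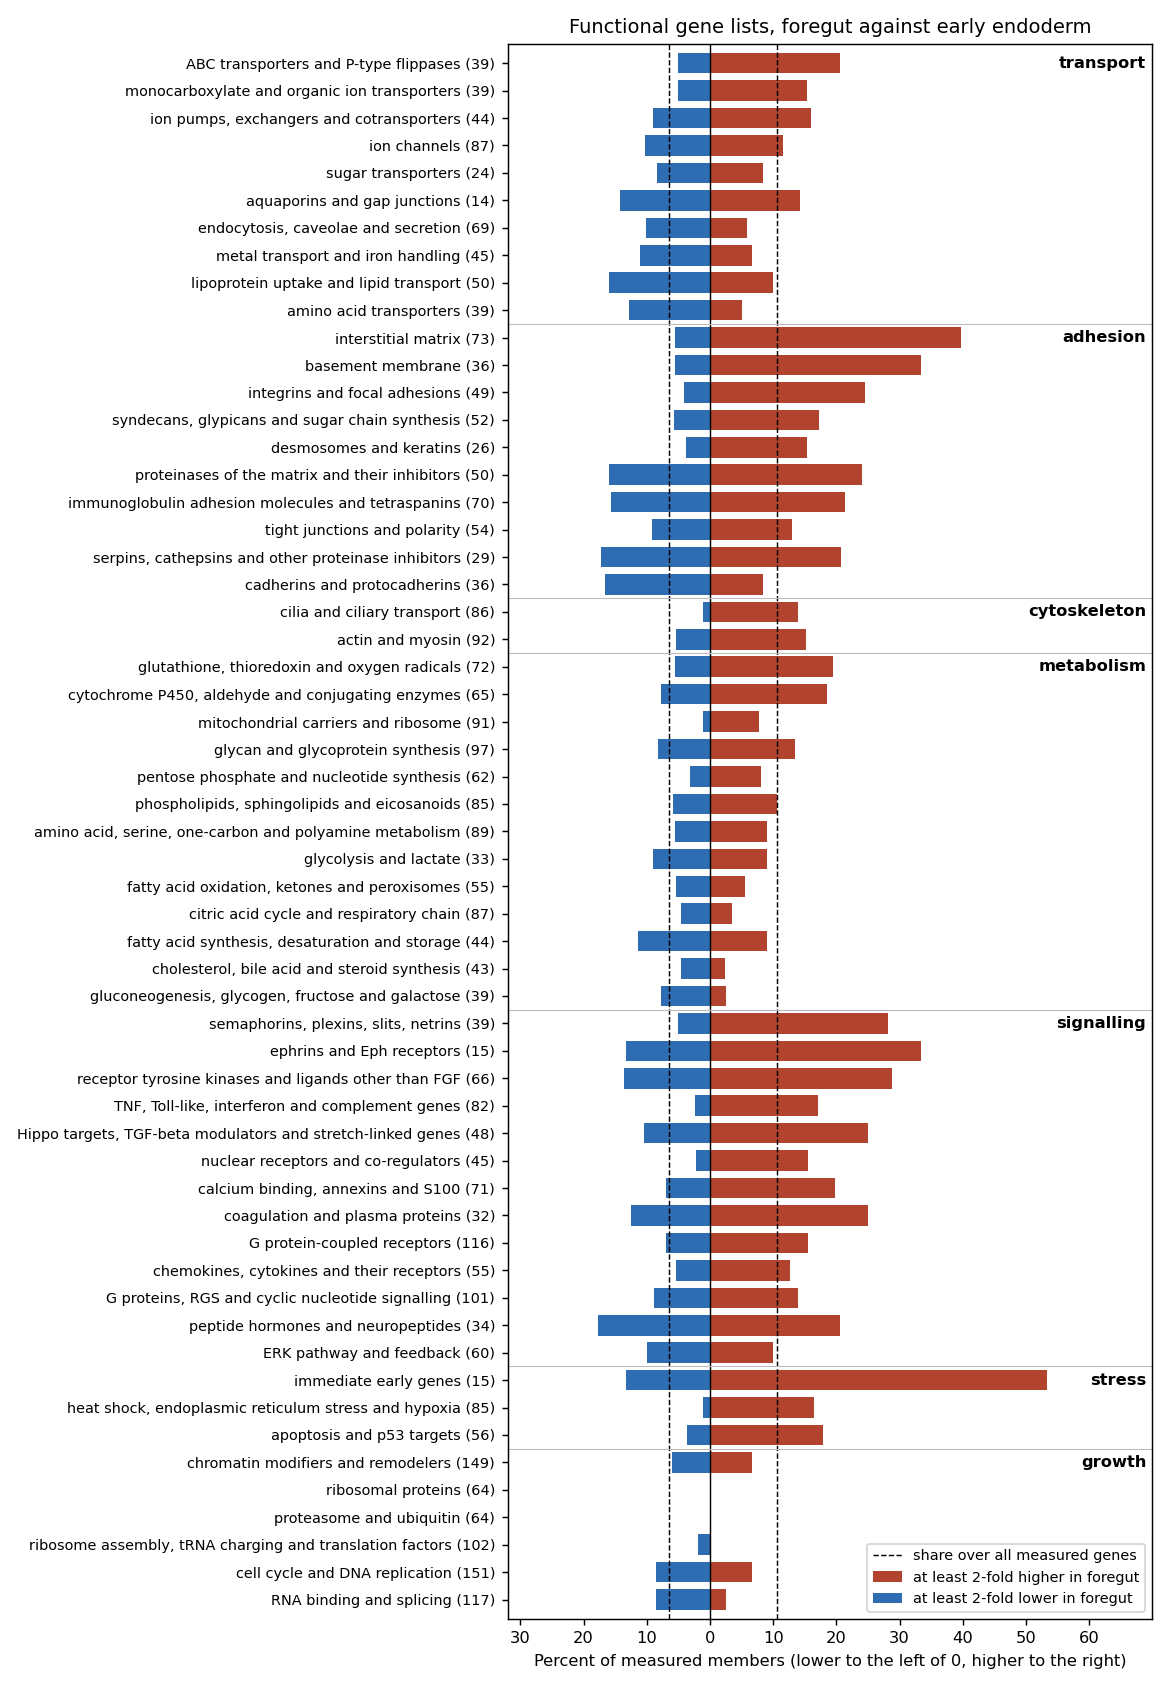
Share of measured members of each functional list named here (number in brackets) that were at least 2-fold higher in foregut (to the right of 0, percent) or lower (to the left). Dashed lines mark the shares over all measured genes, 10.6% and 6.49%; matrix, basement membrane and immediate early lists reach far to the right, and ribosomal protein and proteasome lists are empty.

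Extracellular matrix genes were the adhesion group with the most members higher in foregut. Of 73 measured genes of the interstitial matrix, 29 were higher and 4 lower (39.7% and 5.48%, against 10.6% and 6.49% of all genes). Their median lay 0.58 above that of all genes on the log2 scale (0.36 to 0.76 over the alternatives). LOXL1, a lysyl oxidase that cross-links elastin and collagen, stood at 385, 2439 and 767 units and was 6.33-fold higher in foregut. COL24A1, a fibrillar collagen, was 6.15-fold higher, with 74.5, 458 and 114 units. Some further fibrillar collagens, named after their values were seen, stood higher. COL2A1, the collagen of cartilage and notochord sheath, stood at 338, 1223 and 234 units, COL5A1, a minor component of collagen fibrils, at 138, 478 and 222, and COL27A1, a collagen of cartilage in mammals, at 37.7, 177 and 24.3. Some modifying enzymes, also named after their values were seen, were higher too. PLOD1, a lysyl hydroxylase, stood at 239, 828 and 291 units and P4HA1, a prolyl hydroxylase subunit, at 723, 1876 and 1027. P4HA3, given below, was lower. COL1A1 was 5.12-fold higher in foregut (195, 1000.2 and 61.0 units), whereas COL1A2, which pairs with it in type I collagen, was within 2-fold at 1957, 1011 and 312 units. DCN, a small proteoglycan made by mesenchyme, was at least 12.5-fold higher (276 units in foregut and 78.7 in mid/hindgut, below the floor in early endoderm), and it stands on the mesenchyme list given above. Mesenchyme markers summed to 3943, 4804 and 2075 units, and their part in the matrix counts was not tested.

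Against this trend, HAPLN1, the link protein that ties hyaluronan to proteoglycans, was 14.6-fold lower in foregut. It stood at 1690.1, 116 and 550.2 units. COL23A1, a collagen anchored in the membrane, was 3.60-fold lower (1585, 440.2 and 252 units), and P4HA3, a further prolyl hydroxylase subunit, was about 3.50-fold lower. FBN1, the microfibril protein fibrillin, was the remaining lower member, with a foregut signal below the floor. HAS2, which makes hyaluronan, stayed within 2-fold at 6009 units in early endoderm and 3324 in foregut, but stood at 179 in mid/hindgut. FN1, fibronectin, was among the brightest genes and differed little, with 8262, 10037 and 6844 units.

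Basement membrane genes, which build the sheet under the epithelium, were also more often higher than lower. Of 36 measured genes 12 were higher and 2 lower (33.3% and 5.56%, against 10.6% and 6.49% of all genes). The median lay 0.65 above that of all genes (0.22 to 0.82). LOXL2, a lysyl oxidase that cross-links type IV collagen, was about 9.03-fold higher, with 29.4, 265 and 67.5 units. DAG1, dystroglycan, the laminin receptor, stood at 83.6, 305 and 219.7 units, 3.65-fold higher. LAMA1, the laminin alpha chain of early embryonic membranes, was 3.20-fold higher at 307, 984 and 756 units, while its partners LAMB1 (4177, 4493 and 3179.7 units) and LAMC1 (2425, 4537 and 2685 units) were within 2-fold. HMCN1, the matrix protein hemicentin, was about 3.08-fold lower, but came within 2-fold with a floor at the 60th percentile.

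Among proteoglycans 1 gene stood out for its foregut level. GPC3, a glypican that carries heparan sulfate on the cell surface, stood at 95.0 units in early endoderm against 1382 in foregut and 39.7 in mid/hindgut, 14.5-fold higher in foregut than in early endoderm. HS6ST1, which adds sulfate to heparan sulfate chains, was 3.25-fold higher (129.5, 420.3 and 123 units), and CHPF, which lengthens chondroitin chains, was 3.04-fold higher (53.7, 163 and 62.8 units). HYAL2, a hyaluronidase, was 2.57-fold higher (86.8, 223 and 104 units). In all, 9 of 52 genes of this list were higher and 3 lower (17.3% and 5.77%, against 10.6% and 6.49% of all genes).

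Receptors for the matrix differed in which chains were high. Of 49 genes of integrins and focal adhesions, 12 were higher in foregut and 2 lower (24.5% and 4.08%, against 10.6% and 6.49% of all genes). The median lay 0.44 above that of all genes (0.17 to 0.46). ITGA4, an integrin chain that binds fibronectin, was 6.13-fold lower in foregut, at 6379.6, 1041 and 292 units. ITGA6, a chain of laminin receptors, was higher at 266, 800.1 and 692 units, and ITGB3, a chain of vitronectin receptors, was 4.76-fold higher at 77.7, 370.0 and 172. ITGB1, the beta chain that ITGA4 and ITGA6 can both pair with, was level at 3041, 3192 and 3116 units. NEDD9, a docking protein of focal adhesions, was about 8.93-fold higher (24.7, 221 and 98.3 units), and CSRP1, an actin-associated protein with LIM domains, was 3.04-fold higher (141, 429 and 174 units).

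Cell-cell adhesion genes went in both directions. CDH2, N-cadherin, was 5.60-fold lower in foregut, at 1278 units there against 7155 in early endoderm, with 2317 in mid/hindgut. CDH1, E-cadherin of epithelia, was 2.67-fold higher at 227, 607 and 554 units. Each of these probe sets was compared with itself across arrays, not with the other. CDH20, a type of classical cadherin, was 4.50-fold lower (225, 50.1 and 40.5 units), and CDHR3, a cadherin-related protein known from ciliated airway cells in humans, was about 5.87-fold higher (22.6, 132 and 31.5 units). CTNNB1, beta-catenin, which links cadherins to the cell interior, was level at 8602, 8053 and 8377 units. Over 36 measured cadherins, protocadherins and their partners, 3 were higher and 6 lower (8.33% and 16.7%, against 10.6% and 6.49% of all genes). Scaling on the hybridisation controls gave 6 higher and 4 lower.

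Tight junction genes also went in both directions. CLDN3, a barrier-forming claudin, was 2.75-fold higher in foregut (414, 1138 and 859.7 units). CLDN1, another barrier claudin, was within 2-fold at 5056, 6713 and 5820.0 units. CLDN5, a claudin best known from endothelium and on the endothelial list above, was at least 14.1-fold higher. Among polarity genes, PARD3B was 3.22-fold lower (675, 209.6 and 465 units) and MAGI3, a junction scaffold, was about 3.47-fold lower (137, 39.6 and 84.1 units). The list held 54 measured genes, 7 higher and 5 lower (12.96% and 9.26%, against 10.6% and 6.49% of all genes). This balance did not hold without scaling, which gave 3 higher and 6 lower. A median over the probe sets above the floor gave 6 higher and 7 lower. Leaving out genes on the cell type marker lists gave 5 higher and 5 lower. Among keratins and desmosome genes 4 of 26 were higher and 1 lower (15.4% and 3.85%). The higher ones include PPL, the desmosome-linked periplakin (91.1, 316 and 148 units), and KRT14, a keratin of stratified epithelia (36.0, 177 and 40.4 units). NES, nestin, an intermediate filament protein on the neural list, was 4.64-fold higher (133, 617 and 129 units). KRT7, a keratin of simple epithelia, did not stand apart, with 5356, 5643 and 8866 units.

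The immunoglobulin adhesion molecules and tetraspanins had members on both sides. Of 70 measured, 15 were higher and 11 lower (21.4% and 15.7%, against 10.6% and 6.49% of all genes), but 12 higher and 14 lower without scaling. CD82, a tetraspanin known as a suppressor of metastasis, was about 11.8-fold higher at 39.6, 469 and 165 units. PODXL, podocalyxin, a sialomucin of apical surfaces that endothelium also makes, was 6.42-fold higher at 168, 1081 and 283 units. TSPAN1 was 6.89-fold lower (333, 48.4 and 238 units) and TSPAN4 3.36-fold lower (245, 73.0 and 82.7 units). The galectins, which bind galactose-bearing sugars, parted. LGALS3 was about 5.92-fold higher in foregut (43.2, 256 and 714 units) and LGALS2 was about 3.38-fold lower (146, 43.3 and 1422 units).

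Proteinases and their inhibitors differed by large factors on both sides. Of 50 genes of matrix proteolysis, 12 were higher and 8 lower. TMPRSS2, a membrane serine proteinase of epithelia, was 12.4-fold lower in foregut, with 994, 80.0 and 298 units. MME, neprilysin, which degrades peptides at the cell surface, was about 9.22-fold lower (267, 28.9 and 412 units). ADAM33, a membrane metalloproteinase, was about 6.58-fold higher (30.0, 197 and 99.8 units), and ANPEP, aminopeptidase N, was about 5.31-fold higher (44.0, 234 and 196 units). The lysosomal enzymes named here were lower. LGMN, legumain, stood at 5947, 1394 and 1250.1 units and was 4.26-fold lower in foregut, and CTSZ, cathepsin Z, stood at 818, 171 and 407 units and was 4.78-fold lower.

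Among the inhibitors SPINK5, a serine proteinase inhibitor of epithelia, was 17.6-fold higher in foregut. It stood at 168, 2968 and 1657 units. TFPI2, an inhibitor related to the tissue factor pathway inhibitor, was 7.40-fold higher (115, 848 and 1270.0 units). CSTA, the cathepsin inhibitor cystatin A, went the other way and was 17.4-fold lower (963, 55.5 and 145 units). Over the list of serpins, cathepsins and inhibitors, 6 of 29 were higher and 5 lower (20.7% and 17.2%, against 10.6% and 6.49% of all genes). Without scaling 6 were higher and 6 lower.

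**Figure D3:**
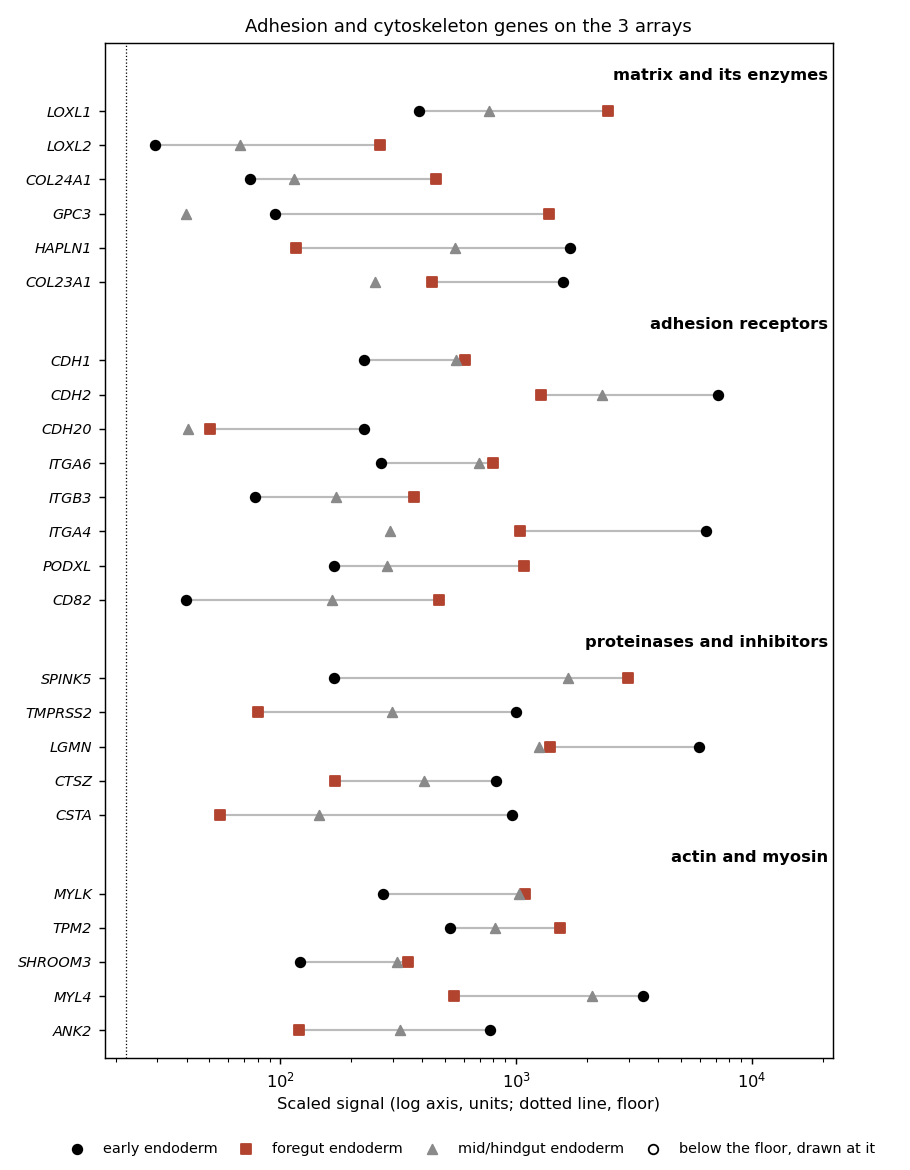
Scaled signals (log axis, units) of adhesion, proteinase and cytoskeleton genes named in the text on the early (circle), foregut (square) and mid/hindgut (triangle) endoderm arrays, with 1 array for each; the grey line joins early endoderm and foregut. CDH2, ITGA4 and HAPLN1 lie lower in foregut than in early endoderm, and LOXL1, GPC3 and SPINK5 lie higher.

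Actin and myosin genes stood on both sides, with 14 higher and 5 lower of 92 (15.2% and 5.43%, against 10.6% and 6.49% of all genes). The lean did not hold with a median over the probe sets above the floor, which gave 8 higher and 9 lower, with one over all probe sets, which gave 6 higher and 7 lower, or without scaling, which gave 8 higher and 8 lower. MYLK, the kinase that switches on smooth muscle and non-muscle myosin, was 3.99-fold higher, at 272, 1084 and 1031 units. TPM2, a tropomyosin that lies along actin filaments, was 2.91-fold higher (524, 1525 and 811 units). SHROOM3, which drives constriction of the apical surface of epithelia, was 2.86-fold higher (121, 347 and 313 units). MYL4, a myosin light chain of embryonic muscle, was 6.32-fold lower (3451, 546 and 2091 units), and ANK2, an ankyrin that anchors membrane proteins, was 6.42-fold lower (772, 120.3 and 322 units). DIAPH3, a formin that extends actin filaments, was 3.62-fold lower (418, 116 and 233 units). The actins ACTB (11683, 10646 and 11255 units) and ACTG1 (9634, 9521 and 10068 units) were level.

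Cilia genes leaned to foregut as reported, with 12 of 86 higher and only DNAL1 lower. These shares were 13.95% and 1.16%, against 10.6% and 6.49% of all genes. The counts were nearly even without scaling, at 7 higher and 6 lower. With the median level of all ribosomal protein probe sets as the scale they were 8 and 6. The median lay 0.10 above that of all genes (0.07 to 0.18). RSPH9, a radial spoke protein of motile cilia, was about 7.40-fold higher at 40.7, 301 and 81.8 units, and ROPN1L, a protein of sperm flagella, was at least 5.54-fold higher (123 units in foregut and 55.5 in mid/hindgut, below the floor in early endoderm). IFT20, a carrier of cargo into cilia, was level at 1879.8, 1680.3 and 2067 units.

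Sugar transporters had 2 higher and 2 lower genes of 24, 8.33% each way and near the 10.6% and 6.49% of all genes. SLC2A14, which the gene table also lists under the name of the high-affinity glucose carrier SLC2A3, was 12.6-fold lower in foregut, with 2044, 162 and 132 units. SLC5A1, the sodium-driven glucose carrier of intestine and kidney, was about 6.94-fold lower (265, 38.1 and 175 units). SLC2A1, the ubiquitous glucose carrier, was 2.39-fold higher at 1006, 2405 and 1008 units, but within 2-fold without scaling. Amino acid transporters had 5 lower and 2 higher genes of 39 (12.8% and 5.13%, against 6.49% and 10.6% of all genes). Scaling on the hybridisation controls gave 7 higher and 2 lower. Their median was -0.29 relative to all genes (-0.63 to 0.00). SLC6A15, a carrier of branched-chain amino acids, was 3.36-fold lower (493, 147 and 282 units), and SLC38A9, the lysosomal arginine sensor, was 2.90-fold lower (184, 63.3 and 76.9 units). SLC38A1, a glutamine carrier, was level at 2336, 2355 and 2329 units. Among organic ion carriers SLC44A3, of the choline transporter-like family, was about 9.34-fold higher (35.3, 329.9 and 282 units), and SLC13A3, a dicarboxylate carrier, was about 4.84-fold higher (33.4, 162 and 65.1 units).

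Some genes of metal and phosphate transport stood lower in foregut. SLC39A8, a zinc and manganese importer, was 7.45-fold lower, at 1105 units in early endoderm against 148 in foregut and 1187 in mid/hindgut. CYBRD1, the ferric reductase that readies iron for uptake, was 7.05-fold lower (380.3, 53.9 and 87.2 units). SLC34A2, a sodium-phosphate carrier of epithelia, was about 6.98-fold lower (239, 34.3 and 72.1 units). MT3, a metallothionein, was about 4.09-fold lower (152, 37.3 and 610.2 units). The iron proteins FTH1, ferritin heavy chain (8183, 6628 and 6655 units), and TF, transferrin (2012, 1721 and 1981 units), were within 2-fold. In all 5 of 45 genes of metal handling were lower and 3 higher (11.1% and 6.67%, against 6.49% and 10.6% of all genes). Scaling on the hybridisation controls turned the balance to 8 higher and 4 lower.

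Calcium pumps and ion channels went in both directions. ATP2B1, the widespread calcium pump of the plasma membrane, was 3.48-fold lower in foregut (3848, 1107 and 2763 units), and ATP2B2, another of that family, was about 4.72-fold higher (39.7, 187 and 65.5 units). ATP2A3, a pump of the endoplasmic reticulum, was at least 13.4-fold higher (297 units in foregut and 108 in mid/hindgut, below the floor in early endoderm). The sodium pump subunit ATP1B1 was level at 1769.9, 1886 and 2266 units. Of 87 channel genes 10 were higher and 9 lower (11.5% and 10.3%, against 10.6% and 6.49% of all genes), but 8 higher and 11 lower without scaling. KCNQ1, a potassium channel of epithelia and heart, was 4.04-fold lower (322, 79.8 and 168 units), TRPM7, a magnesium channel with a kinase domain, was 6.27-fold lower (478, 76.3 and 191 units), and ANO1, a calcium-activated chloride channel, was about 4.25-fold higher (33.0, 141 and 61.7 units). The gap junction gene GJB6 was 2.95-fold lower (923, 313 and 431 units), whereas GJA5, a connexin of arteries and heart, was at least 12.6-fold higher (279 units in foregut and 310.0 in mid/hindgut, below the floor in early endoderm) along with the endothelial markers.

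Several bright genes of lipid traffic and storage were lower in foregut. Of 50 genes of lipoprotein uptake and lipid transport 8 were lower and 5 higher, although the median lay 0.13 above that of all genes, and the balance turned to 14 higher and 10 lower with a floor at the 20th percentile and 13 higher and 6 lower with scaling on the hybridisation controls. PLIN2, the coat protein of lipid droplets, was 5.36-fold lower in foregut, with 3423, 639 and 1047 units. APOA1, the main protein of high-density lipoprotein, was 3.34-fold lower at 3305, 990.3 and 1244 units. LPL, lipoprotein lipase, was 5.97-fold lower at 484, 81.0 and 296 units. LRP2, megalin, a large uptake receptor of epithelia, was 2.78-fold lower at 455, 164 and 272 units. FABP5, a fatty acid carrier inside cells, was 5.59-fold higher and peaked in foregut among the 3 arrays, with 183, 1023 and 108 units. STRA6, the receptor for retinol-binding protein, also peaked there, with 212, 838 and 85.2 units.

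Within central energy metabolism, glycolysis genes stood apart about as often as all genes, and genes of the citric acid cycle and respiratory chain less often. Of 33 glycolysis genes 3 were higher and 3 lower (9.09% each way, near the 10.6% and 6.49% of all genes). Bright members within 2-fold were ENO1, enolase, at 11166, 11284 and 11722 units and GAPDH at 11207, 10917 and 11260.5. Of 87 genes of the citric acid cycle and respiratory chain 3 were higher and 4 lower (3.45% and 4.60%). COX4I1, of cytochrome oxidase, gave 6423, 6449.8 and 5912 units. NDUFS3, a complex I subunit, was an exception at 2.89-fold lower (210.3, 72.8 and 255 units). Of 91 mitochondrial carriers and ribosomal proteins 7 were higher and 1 lower (7.69% and 1.10%, against 10.6% and 6.49% of all genes). Among them SLC25A21, a carrier of oxodicarboxylic acids, was 2.48-fold higher (184, 456 and 142 units). FBP1, which makes glucose in gluconeogenesis, was about 4.19-fold lower (185, 44.2 and 111 units). The list of cholesterol synthesis, which also holds enzymes of steroid and thyroid hormone, had 1 higher and 2 lower of 43 genes (2.33% and 4.65%). The lower ones were DIO2, which activates thyroid hormone and was 4.92-fold lower (334, 67.9 and 576 units), and DIO3, which inactivates it and was 3.69-fold lower (234, 63.3 and 691 units).

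Nucleotide, phospholipid and amino acid enzymes stood on both sides. The list of pentose phosphate and nucleotide synthesis had 5 higher and 2 lower genes of 62 (8.06% and 3.23%). Phospholipids, sphingolipids and eicosanoids had 9 and 5 of 85 (10.6% and 5.88%). Amino acid, one-carbon and polyamine metabolism had 8 and 5 of 89 (8.99% and 5.62%). All genes had 10.6% and 6.49%. Without scaling the counts were 3 higher and 7 lower, 7 and 12, and 4 and 9. UPP1, uridine phosphorylase, which salvages uridine, was at least 16.3-fold higher in foregut (360.1 units in foregut and 341 in mid/hindgut, below the floor in early endoderm). ADA, adenosine deaminase, was 3.52-fold lower (259, 73.4 and 130.5 units), and DPYS, of pyrimidine breakdown, was 4.88-fold lower (621, 127 and 551 units). PLPP1, a lipid phosphatase at the cell surface, was 6.77-fold lower (2686, 397 and 519.8 units). CDS1, of phosphatidylinositol synthesis, was 3.85-fold higher (47.8, 184 and 276 units), and PEMT, which makes phosphatidylcholine by methylation, was 2.51-fold higher (154, 386 and 249.9 units). ASS1, of arginine synthesis, was 2.48-fold higher and peaked in foregut (177, 438 and 47.7 units), and FAH, the last enzyme of tyrosine breakdown, was about 3.38-fold higher and peaked in mid/hindgut (36.2, 122 and 409.5 units). ODC, ornithine decarboxylase of polyamine synthesis, was level at 3729, 3928 and 3656 units. Sugar-adding enzymes gave 13 higher and 8 lower genes of 97 (13.4% and 8.25%, against 10.6% and 6.49% of all genes), but 7 higher and 13 lower without scaling. Among them GALNT6, which starts mucin-type chains, was 6.34-fold higher (49.3, 313 and 121 units), and B3GAT2, a glucuronyltransferase, was about 5.65-fold lower (199.7, 35.4 and 47.3 units).

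Genes that handle glutathione and oxygen radicals leaned to foregut by counts at 2-fold. Of 72 genes of glutathione, thioredoxin and oxygen radicals 14 were higher and 4 lower (19.4% and 5.56%, against 10.6% and 6.49% of all genes). The median lay 0.09 above that of all genes (0.09 to 0.14). GSTA4, a glutathione transferase for lipid peroxidation products, was at least 11.4-fold higher (253 units in foregut and 38.1 in mid/hindgut, below the floor in early endoderm). GPX3, the secreted glutathione peroxidase, was 7.12-fold higher (65.0, 463 and 204 units), and GPX8, a peroxidase of the endoplasmic reticulum, was 7.13-fold higher (68.9, 491 and 214 units). The abundant PRDX1 (9342, 8750.1 and 8637 units), SOD1 (5890.0, 6059 and 5495 units) and TXN (8645, 8542 and 11648 units) were within 2-fold. NOXO1, the organiser of a superoxide-making oxidase of the gut, was at least 19.9-fold lower, from 441 units to below the floor, with 122 in mid/hindgut. Cytochrome P450, aldehyde and conjugating enzymes had 12 higher and 5 lower of 65 (18.5% and 7.69%), but 7 higher and 8 lower without scaling. ALDH2, the mitochondrial acetaldehyde enzyme, was 3.09-fold higher (585, 1808 and 1289 units), MAOA, which oxidises amines, was 2.86-fold higher (69.8, 199.8 and 208 units), and RDH5, a retinol dehydrogenase, was about 5.60-fold higher (36.1 units in early endoderm and 202 in foregut, below the floor in mid/hindgut). ALDH1A1, a retinal dehydrogenase, was at least 7.95-fold lower (176 units in early endoderm and 39.2 in mid/hindgut, below the floor in foregut).

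The list of heat shock, endoplasmic reticulum stress and hypoxia had 14 higher genes of 85 in foregut and 1 lower, EPAS1 (16.5% and 1.18%, against 10.6% and 6.49% of all genes). It was not a list of hypoxia genes alone, and its oxygen-linked members went different ways. HIF1A, the oxygen-regulated transcription factor, was 3.76-fold higher, at 962 units in early endoderm against 3612 in foregut and 1041 in mid/hindgut. EPAS1, its relative that is known from endothelium, did the reverse and was 6.02-fold lower (979, 163 and 1222 units). CA9, the carbonic anhydrase on the surface of hypoxic cells, was 3.60-fold higher, with 1810.4, 6519.6 and 1755 units. ADM, adrenomedullin, a peptide acting on vessels, was 6.10-fold higher (103, 628 and 204 units), and VEGFA, the endothelial growth factor, was about 4.64-fold higher (35.7, 166 and 88.8 units). BNIP3, of mitochondrial turnover, was 2.37-fold higher in foregut and level with it in mid/hindgut (285, 676 and 708 units). ALDOC, an aldolase, was 2.39-fold higher (2266, 5414 and 2306 units), but within 2-fold without scaling. Other genes known to respond to low oxygen were within 2-fold, among them EGLN1, the oxygen sensor (1149.7, 1373 and 1042 units), EGLN3 (26.0, 30.0 and 23.9 units), KDM3A (1209, 1422 and 2237 units) and NDRG1 (1189, 2004 and 2104 units), and PDK1, which holds pyruvate out of mitochondria, pointed lower (1253, 706 and 1232 units). The heat shock proteins HSPA8 (11433, 7406 and 8877 units), HSP90AA1 (7873, 5148 and 8623 units) and HSPD1 (6363, 4934 and 7800.2 units) were within 2-fold and not higher in foregut.

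**Figure D4:**
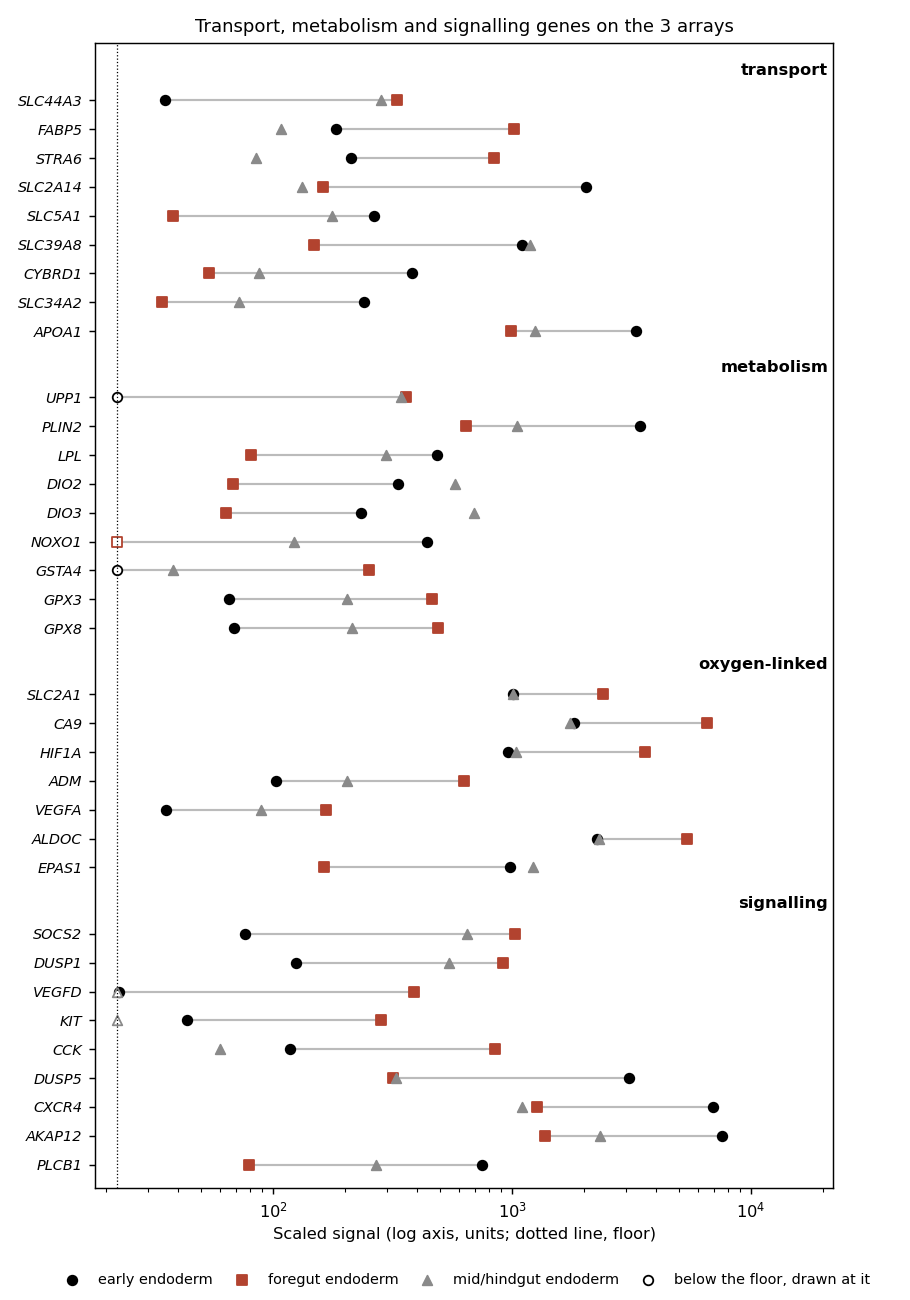
Scaled signals (log axis, units) of transport, metabolism, oxygen-linked and signalling genes named in the text on the early (circle), foregut (square) and mid/hindgut (triangle) endoderm arrays, 1 array each; open symbols lie below the floor and are drawn at it. SLC2A1, CA9, HIF1A and ALDOC have nearly the same signal in early and mid/hindgut endoderm and a higher one in foregut.

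Receptor tyrosine kinases and ligands other than FGF were more often higher than lower. Of 66 measured genes 19 were higher and 9 lower (28.8% and 13.6%, against 10.6% and 6.49% of all genes). The median lay 0.34 above that of all genes (0.05 to 0.40). Among ligands, VEGFD, which acts on lymphatic and blood vessels, was about 17.2-fold higher in foregut (22.7 units in early endoderm and 390.3 in foregut, below the floor in mid/hindgut). Among receptors, KIT, the stem cell factor receptor, was about 6.50-fold higher (43.4 units in early endoderm and 282 in foregut, below the floor in mid/hindgut), and EGFR, the epidermal growth factor receptor, was about 5.63-fold lower (228, 40.5 and 79.0 units). NRP2, a receptor shared by semaphorins and VEGFs, was 3.37-fold lower (651, 193 and 271 units), while the related NRP1 was within 2-fold (1278, 1988 and 1877 units). The insulin-like growth factor binding proteins parted, with IGFBP5 at least 5.84-fold higher (129 units in foregut and 123 in mid/hindgut, below the floor in early endoderm) and IGFBP1 at least 10.4-fold lower (231 units in early endoderm and 29.3 in mid/hindgut, below the floor in foregut).

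Ephrins and Eph receptors, which sort cells at boundaries, had 5 higher and 2 lower genes of 15, and 2 higher and 3 lower without scaling. The reported shares were 33.3% and 13.3%, against 10.6% and 6.49% of all genes. EPHA5 was about 5.05-fold higher (37.0, 187 and 115 units), EPHA4 was 3.67-fold lower (393, 107 and 139 units), and the ligand EFNB2 was 4.58-fold lower (597, 130.3 and 84.2 units). Of the other higher receptors, EPHA2, EPHA3, EPHB3 and EPHB6 came within 2-fold under at least 1 alternative. Semaphorins, plexins, slits and netrins gave 11 higher and 2 lower genes of 39 (28.2% and 5.13%). They gave 4 higher and 4 lower with a median over all probe sets and 6 higher and 4 lower over those above the floor. PLXND1, a semaphorin receptor of vessels, was 15.1-fold higher (101, 1532 and 1897 units), as were the endothelial markers, and its share from endothelium was not tested. SEMA3F, a secreted semaphorin, was 4.47-fold higher and peaked in foregut (189, 844 and 129 units), and SEMA4B was 3.19-fold higher (149, 474 and 172 units). DRAXIN, a guidance protein of growing axons, was 3.18-fold lower (147, 46.3 and 56.9 units).

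Phosphatases that switch off ERK kinases went in opposite directions. DUSP5, a nuclear ERK phosphatase, was 9.74-fold lower in foregut, with 3085, 317 and 326 units. DUSP1, a phosphatase of stress kinases and ERK, was 7.35-fold higher, with 125, 919 and 542 units. DUSP1 also belongs to the immediate early genes, which respond within minutes to handling as well as to signals. Of 15 such genes 8 were higher and 2 lower (53.3% and 13.3%, against 10.6% and 6.49% of all genes). The median lay 0.96 above that of all genes (0.57 to 0.96). CCN2, a matrix-associated growth factor of that list, was 3.77-fold higher (252, 949.6 and 1125 units), and MYC was 3.26-fold lower (969, 298 and 658 units). The collagenase step used on both later tissues and not on early endoderm cannot be told apart from stage here. RASL11B, a small Ras-like protein, was about 4.80-fold higher (41.2, 198 and 115 units). Over the ERK list 6 of 60 genes were higher and 6 lower, 10.0% each way.

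Some of the brightest genes of G protein signalling were lower in foregut. CXCR4, the receptor for the chemokine CXCL12, was 5.44-fold lower in foregut, at 6944, 1277 and 1102 units, while CXCL12 itself was within 2-fold at 1086, 1985 and 261 units. AKAP12, a scaffold for protein kinase A, was 5.49-fold lower (7567, 1377 and 2323 units), PLCB1, a phospholipase C downstream of receptors, was 9.46-fold lower (748, 79.0 and 269 units), and RGS20, which shuts off G proteins, was at least 18.2-fold lower (402 units in early endoderm and 24.4 in mid/hindgut, below the floor in foregut). HTR2C, a serotonin receptor, was about 6.53-fold lower (214, 32.8 and 137 units), and SCTR, the secretin receptor, was at least 9.36-fold lower (207 units in early endoderm, below the floor elsewhere). F2RL2, a thrombin receptor family member, was at least 22.2-fold higher (492 units in foregut and 1130.1 in mid/hindgut, below the floor in early endoderm), and RAMP2, which makes the calcitonin receptor-like receptor respond to adrenomedullin, was about 5.94-fold higher (27.4, 162 and 153 units). RAMP2 and ADGRL4, an adhesion receptor that was at least 6.18-fold higher, are known from endothelium, whose markers were higher as well. Over 116 receptors 18 were higher and 8 lower (15.5% and 6.90%, against 10.6% and 6.49% of all genes), but 11 higher and 13 lower without scaling. Over 101 genes of G proteins and cyclic nucleotides 14 were higher and 9 lower (13.9% and 8.91%), but 8 higher and 12 lower without scaling.

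Secreted peptides stood on both sides, with 7 higher and 6 lower of 34 (20.6% and 17.6%, against 10.6% and 6.49% of all genes). Without scaling 5 were higher and 8 lower. CCK, cholecystokinin, a hormone of gut and brain, was 7.20-fold higher and peaked in foregut, with 118, 847 and 59.7 units. Other members were lower. POMC, the precursor of ACTH, was about 12.6-fold lower (408 units in early endoderm and 32.3 in foregut, below the floor in mid/hindgut), AGRP, a feeding peptide, gave 267 units in early endoderm and 27.2 in mid/hindgut, below the floor in foregut, and PENK, the enkephalin precursor, was about 8.93-fold lower (291, 32.5 and 59.3 units). SST1, the somatostatin gene, was within 2-fold at 298, 531 and 34.3 units but stood lower in mid/hindgut.

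Of 55 chemokine and cytokine genes 7 were higher and 3 lower, 12.7% and 5.45%, near the 10.6% and 6.49% of all genes. Clotting and plasma protein genes had 8 higher and 4 lower of 32. Hippo and TGF-beta genes had 12 higher and 5 lower of 48, but 7 higher and 8 lower without scaling. As reported, the clotting list and the Hippo and TGF-beta list each had larger shares both ways than all genes. SOCS2, a brake on growth hormone signalling, was 13.5-fold higher, at 76.3, 1033 and 649 units. IL1R1, the interleukin-1 receptor, was 3.42-fold higher (109, 373 and 748 units), together with its partner IL1RAP, about 6.27-fold higher (34.4, 215 and 228 units). CXCL14, a chemokine of epithelia, was at least 10.2-fold lower (226 units in early endoderm and 37.8 in mid/hindgut, below the floor in foregut). NFKBIA, the inhibitor of NF-kappa-B and itself a target of it, was 3.53-fold higher (119.7, 422 and 322 units). In its list of TNF, Toll-like, interferon and complement genes 14 of 82 were higher and 2 lower (17.1% and 2.44%). F3, tissue factor, the starter of clotting, was 9.73-fold higher and peaked in foregut (162, 1579.8 and 272 units), while the clotting factor gene F5 was 4.81-fold lower (392, 81.4 and 169 units). TGFB2, a transforming growth factor, was 5.63-fold higher (81.9, 461 and 243 units), as was LTBP1, which holds that factor in the matrix, 4.50-fold higher (233, 1049 and 490.5 units). FST, follistatin, which binds activin, was about 4.84-fold lower (151, 31.1 and 27.9 units). CRIM1, a membrane protein that binds BMPs, was 6.27-fold higher (54.3, 340.4 and 223 units).

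Nuclear receptors and calcium-binding proteins added a few large differences. PPARGC1A, a coactivator of mitochondrial genes, was at least 17.1-fold higher in foregut (378 units in foregut and 102 in mid/hindgut, below the floor in early endoderm), and NR2F2, the orphan receptor of veins and mesenchyme, was about 12.6-fold higher (26.5, 336 and 108 units). Of 45 genes of the nuclear receptor list 7 were higher and 1 lower (15.6% and 2.22%, against 10.6% and 6.49% of all genes). CAPN8, a calpain proteinase known from stomach, was 5.43-fold higher in foregut and low in mid/hindgut (123, 666 and 25.1 units), and CAPN2, a widespread calpain, was 5.45-fold higher (80.5, 439 and 73.4 units). ANXA1, annexin A1, was 3.77-fold higher (78.2, 295 and 59.8 units), whereas ANXA8L1, another annexin, was 4.18-fold lower (1006, 241 and 45.5 units).

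The machinery of growth differed least. None of 64 ribosomal protein genes and none of 64 proteasome and ubiquitin genes was 2-fold apart in either direction. Of 102 genes of ribosome assembly and translation 2 were lower and none higher, with TAF1D, of ribosomal RNA transcription, 3.24-fold lower (533, 164 and 367 units). Cell cycle genes stood on both sides, with 10 higher and 13 lower of 151 (6.62% and 8.61%, against 10.6% and 6.49% of all genes). Their median was -0.19 relative to all genes (-0.21 to -0.12). Scaling on the hybridisation controls gave 22 higher and 3 lower. CDKN1A, the p21 inhibitor of cell cycle kinases, was at least 6.57-fold higher (145 units in foregut and 112 in mid/hindgut, below the floor in early endoderm), while MDM2, which degrades p53, was 4.08-fold lower (739, 181 and 203 units). PHLDA2, a growth-restraining gene in mammalian placenta, was 3.54-fold higher (734, 2597 and 1909 units). CDK1 (6313, 5071 and 5451 units) and PCNA (5861, 5386 and 5885 units), of dividing cells, were within 2-fold.

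Chromatin and RNA-binding genes had few members apart. SMARCA2, an ATPase of SWI/SNF remodelling complexes, was 4.37-fold higher (61.1, 267 and 318 units), and KAT2B, a histone acetyltransferase, was 3.17-fold higher (48.3, 153 and 184 units). JARID2, a partner of the Polycomb complex, was 3.03-fold lower (3406, 1123 and 905 units), and PHC1, a Polycomb protein, was 2.79-fold lower (661, 237 and 361 units). SIRT5, which removes acyl groups from mitochondrial proteins, was 3.51-fold higher (238, 834 and 242 units). Of 149 chromatin genes 10 were higher and 9 lower (6.71% and 6.04%, against 10.6% and 6.49% of all genes), but 5 higher and 16 lower without scaling. Of 117 RNA-binding genes 3 were higher and 10 lower (2.56% and 8.55%, against 10.6% and 6.49% of all genes). Scaling on the hybridisation controls gave 10 higher and 5 lower. DGCR8, of microRNA processing, was 2.99-fold lower (1259, 421 and 880.3 units) and ELAVL4, a neural RNA-binding protein, 2.92-fold lower (299, 102 and 213 units).

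By counts at 2-fold, 17 of the 58 functional lists had more higher than lower genes under all 13 alternatives, of 39 that did as reported. They include the matrix, basement membrane, integrin, proteoglycan, cilia, oxygen radical, receptor tyrosine kinase and immediate early lists. Mitochondrial carriers and ribosome were also among the 17, with 7.69% higher, under the 10.6% of all genes. None of the 12 lists with more lower genes kept that balance under all of the alternatives. All measured genes had 1145 higher and 701 lower as reported, so more higher than lower genes is also the general balance. Scaling on the hybridisation controls gave 2465 and 380 over all genes, which works against any list with more lower genes. Relative to all genes, 25 of the 58 functional lists kept a higher median under all alternatives run, 6 kept a lower one and 27 lay on both sides or at it. The lists furthest above were immediate early genes, ephrins, basement membrane and interstitial matrix. Those below throughout included cell cycle, ribosome assembly, RNA binding and fatty acid synthesis, where the distance was small, as for the last at -0.10 (-0.18 to -0.06). Fold changes of single genes rest on the brightest probe set, and taking the median over all probe sets above the floor moved 100 of 403 genes that the naming rule gives by more than the technical SD and brought 44 of them within 2-fold. Among the genes given above, the log2 difference was then smaller for PPARGC1A (2.59), DENND5B (-2.46), MME (-1.40), ATP2A3 (1.34), PLXND1 (2.47), GREB1 (2.81), CDHR3 (1.04), EGFR (-1.21) and DIO2 (-1.21). It was also smaller for UPK1B (3.59), SLC2A14 (-3.08), TMEM37 (-2.46), FILIP1 (4.20) and PLCXD1 (-3.84). These are examples and not a full list. The naming rule itself requires the same direction under this median, so this is no check of direction. Leaving out all genes on the cell type marker lists, an alternative chosen after the data were seen, gave 1103 genes higher and 675 lower.

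**Figure D5:**
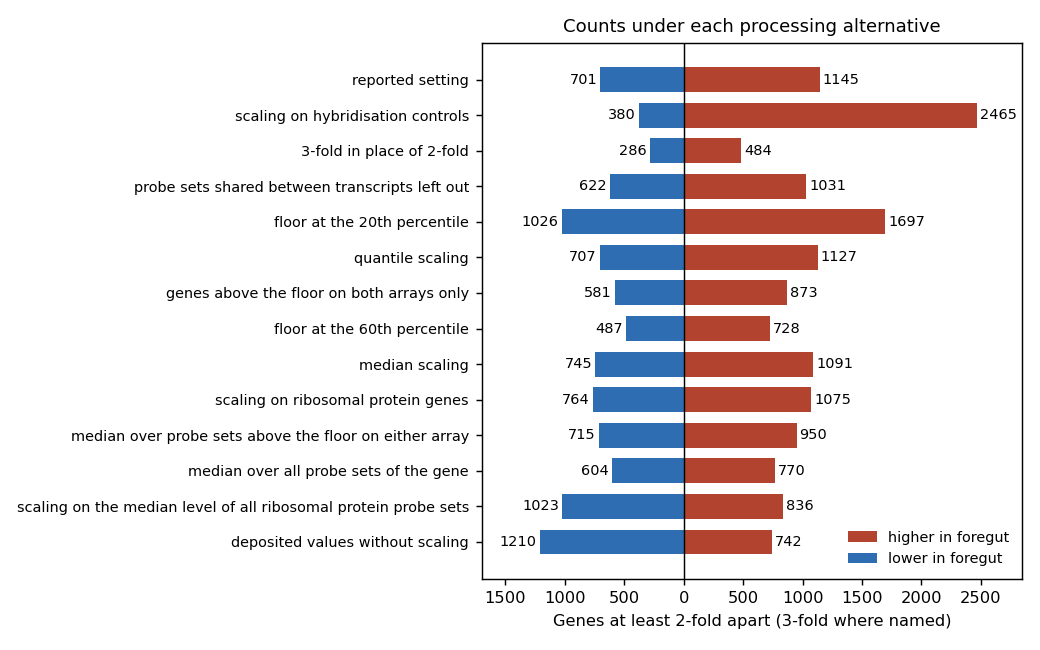
Number of genes at least 2-fold higher (right of 0) or lower (left of 0) in foregut than in early endoderm as reported and under each alternative, with 3-fold where named. Higher genes outnumber lower ones except without scaling (742 against 1210) and with the median level of all ribosomal protein probe sets, dim ones included, as the scale (836 against 1023).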

How the data were processed

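RNA was measured on 3 Affymetrix Chicken Genome Arrays, 1 for each tissue pool. The authors deposited linear MAS5 signal intensities, per the submitters' processing notes, with version and settings not given in the sources used here. Their direction is that of raw signal and no centring was found, but the target of any scaling stays unknown. Their medians were 36.6 for early endoderm, 30.6 for foregut and 32.7 for mid/hindgut, and their 2% trimmed means 192, 155 and 159.8.

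Each array was scaled to the mean of these trimmed means, by factors of 0.881, 1.09 and 1.06, and floored at 22.1 units. Of 746 probe sets that are neither chicken nor Affymetrix controls, 1.74%, 3.49% and 2.28% lay above the floor. The 3'/5' signal ratio was 1.55, 1.69 and 2.19 for actin and 0.982, 0.972 and 1.01 for GAPDH. The number of arrays limits the precision.

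Of 37693 chicken probe sets, the platform annotation gave 1 gene for 27178, several for 177 (left out) and did not list the others. Gene identifiers updated the name of 26863 to a RefSeq gene table of assembly GRCg7b. Each gene was read from the probe set whose floored log2 signal had the highest mean over the arrays. No test was possible; genes were called at 2-fold, and lists are described by counts and medians. Members and lists were chosen with earlier results of these data known, and old gene symbols were matched by hand. Named genes are, per list, up to 5 highest and lowest members at least 2-fold apart with a brighter signal of at least 88.6 units and a probe set median of the same sign, up to 3 bright members within 2-fold, and the 15 highest and lowest with concordant probe sets; the text gives a selection of these. A further gene list counted among the functional lists is not reported here by itself. CDH5, EPCAM and HHEX come from the marker lists. COL1A1, COL2A1, COL5A1, COL27A1, PLOD1, P4HA1, FBN1, LAMA1, BNIP3, EGLN1, EGLN3, KDM3A, NDRG1, PDK1 and the lower cilia gene were named after their values were seen. Calculations used Python 3.11.15, numpy 2.4.6 and pandas 2.3.3, and were tested on simulated data. Alternatives covered scaling, floor, probe set choice and fold threshold.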

Additional observations from a re-analysis of the deposited data

Results flagged for a closer look

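Probe sets outside the named genes also differed between the tissues. Of 10527 chicken probe sets without 1 named gene, which the comparison above does not use, 5486 were above the floor on either array. Of these, 495 (9.02%) stood 2-fold or more higher in foregut and 390 (7.11%) 2-fold or more lower, against 10.6% and 6.49% of named genes. At 4-fold the counts were 97 and 61. They were singled out because they lie in data outside the named genes, and no cause was tested.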

How the results depend on the processing

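No paired analysis was possible because each tissue has 1 array and no replicate number is shared between groups that could be blocked. As reported, 1145 genes were at least 2-fold higher and 701 lower in foregut. Scaling on the hybridisation controls gave 2465 and 380, with the median of all genes moved to 0.51 on the log2 scale. The deposited values without scaling gave 742 and 1210, with a median of -0.21. Setting the median of the ribosomal protein genes level gave 1075 and 764. The median level of all ribosomal protein probe sets gave 836 and 1023, but left the ribosomal protein genes themselves at a median of -0.16; the form of this scale was settled after the data were seen. A floor at the 60th percentile gave 728 higher genes of 8497 measured and brought 43 named genes within 2-fold, and a 3-fold threshold gave 484 and 286 by construction. Under the other alternatives, among them quantile scaling, median scaling, a floor at the 20th percentile, genes above the floor on both arrays and other choices of probe set, both counts stayed within 1.5 times the reported ones. Of 403 genes that the naming rule gives at 2-fold or more, 153 came within 2-fold under at least 1 alternative. Only ABCA4 (-0.0707) and ACSL1 (0.276 on the log2 scale) turned direction, both when probe sets shared between transcripts were left out, and the cause was not tested. Most alternatives could hardly turn a gene picked at 2-fold or more. The naming rule requires the same sign for the median over probe sets above the floor. The scalings moved the median of all genes by less than 2-fold. The count of reversals therefore says little about how stable the directions are. "At least" folds move with the floor by construction. Signals near the floor limit what can be said of dim genes, and no alternative measures the spread between pools.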

Other observations

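Values for a few further gene groups follow, with no explanation. Of 39 ABC transporters and lipid flippases 8 passed 2-fold towards foregut and 2 towards early endoderm (20.5% and 5.13%, against 10.6% and 6.49% of all genes). The balance turned to 5 higher and 7 lower without scaling, and to 5 and 6 with the median level of all ribosomal protein probe sets as the scale. The higher ones that the naming rule gives were ABCA4, ABCC3, ABCB8, ABCC8 and ABCF3, and each came within 2-fold under at least 1 alternative. Of 56 genes of cell death and p53 targets 10 were higher and 2 lower (17.9% and 3.57%). PLK2, a kinase induced by stress, was 3.59-fold higher, with 95.7, 344 and 345 units in the order early endoderm, foregut and mid/hindgut. HSPA12A, a distant relative of the heat shock protein family, was 3.30-fold higher, with 238, 785 and 414 units.

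Of 69 genes of endocytosis and secretion 7 were lower and 4 higher (10.1% and 5.80%, against 6.49% and 10.6% of all genes), although the list's median log2 difference was 0.211. Scaling on the hybridisation controls turned the balance to 16 higher and 5 lower. RAB3B, a GTPase of regulated secretion, was 3.20-fold higher (90.7, 290.0 and 265 units), and SYT11, of the synaptotagmin family, was 2.92-fold lower (1015, 348 and 571 units). The convertases PCSK5 (2591, 695 and 559.8 units) and PCSK6 (855, 215 and 99.6 units), which activate secreted growth factors, were 3.73-fold lower and 3.98-fold lower, and each came within 2-fold under at least 1 alternative. RAB5A, of early endosomes, was within 2-fold at 5104, 4100.0 and 5035 units.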
